A study of Mus musculus with 2 samples.

Results

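Interleukin (IL)-1 signalling was followed in the colon of colitic mice through 8 of the 32228 genes counted in the deposited matrices. They are the cytokine genes Il1a, Il1b and Il1f9, the antagonist gene Il1rn, and the inflammasome genes Nlrp3, Pycard, Casp1 and Gsdmd. The genes were chosen by name for their place in the pathway, and their UMIs (unique molecular identifiers, each a tag of 1 captured transcript) were counted per class of cell and per library. The files held a pair of 10x Genomics 3′ libraries of sorted CD45+ 7-AAD- cells (leukocytes that exclude a dye of dead cells) of the colonic lamina propria. The library labelled WT came from wild-type mice and the Ring1AKO-labelled library from mice with a knockout of Ring1a, both of strain C57BL/6 and, by the labels, 8 to 10 weeks old. Mice of both groups drank 2.5% dextran sulfate sodium (DSS), which injures the colonic epithelium, for 7 or 8 days, and the cells of 5 mice per group were pooled. There was thus 1 library per group, no test was made between them, and the genotype cannot be told apart from a batch of the library or from the pool of mice. Values given in pairs are those of the WT-labelled library first and the Ring1AKO-labelled library next. Intervals given here are exact 95% intervals that cover counting error only.

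IL-1α and IL-1β are cytokines that bind the same receptor on epithelial, stromal and immune cells and start NF-κB signalling. IL-1β is made as an inactive precursor. The sensor NLRP3 and the adaptor ASC, the product of Pycard, assemble into the inflammasome, in which caspase-1 cleaves the IL-1β precursor and gasdermin D, whose fragment opens pores in the cell membrane. IL-1α needs no caspase-1 to be active and can act as an alarm signal of dying cells. The receptor antagonist encoded by Il1rn occupies the IL-1 receptor without signalling, and Il1f9 encodes IL-36γ, a cytokine of the same family with a receptor of its own. Transcript counts show neither cleavage nor secretion.

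The members lie on 5 chromosomes of the GRCm38 build in the GENCODE vM21 annotation. The cytokine and antagonist genes are all on chromosome 2, where Il1a (129299610 to 129309972) and Il1b (129364570 to 129371139) are neighbours on the minus strand with 54.6 kb between them. Il1f9 (24186476 to 24193568) and Il1rn (24336853 to 24351494) lie on the plus strand farther up the chromosome, 143 kb apart. Nlrp3 is on chromosome 11, Pycard on chromosome 7, Casp1 on chromosome 9 and Gsdmd on chromosome 15. The antisense gene Il1bos overlaps Il1b and had 94 and 41 UMIs in cells, and Gm14023 overlaps Il1a on the opposite strand with 53 and 43 UMIs. The 250 bases before the start sites of Il1a and Il1b are shown because Il1a was past 2-fold between the libraries in monocyte-gated cells and its neighbour was not. They were taken from RefSeq (build GRCm38.p6, minus strand, 5′ to 3′), and capitals mark matches to the motifs searched on both strands.
Il1a, chr2:129309973-129310222: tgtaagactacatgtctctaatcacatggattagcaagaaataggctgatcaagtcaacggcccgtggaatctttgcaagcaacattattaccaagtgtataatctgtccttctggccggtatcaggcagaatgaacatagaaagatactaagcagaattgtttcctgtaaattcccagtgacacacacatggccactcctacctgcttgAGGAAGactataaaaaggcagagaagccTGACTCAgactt
Il1b, chr2:129371140-129371389: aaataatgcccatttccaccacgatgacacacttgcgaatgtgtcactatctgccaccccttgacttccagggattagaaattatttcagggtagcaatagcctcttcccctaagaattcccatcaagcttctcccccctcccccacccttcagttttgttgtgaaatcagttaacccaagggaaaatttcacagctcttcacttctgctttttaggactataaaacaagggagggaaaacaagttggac
The motifs were TGANTCA (the AP-1 motif), TTGCNNAA (a C/EBP motif), AGGAAG (an ETS core) and the consensus site of NF-κB known as the κB site. The Il1a stretch held TGACTCA, which began 12 bases before the start, and AGGAAG, which began 40 bases before it. The Il1b stretch held none of these 4 motifs. These matches were not particular to Il1a. A start site of Il1rn, with a monocyte-gated log2 ratio of -0.03, held TGAGTCA 141 bases before it. The ETS core was also found before Nlrp3, Pycard and Casp1, with monocyte-gated ratios of 0.24, -0.37 and -0.85. Of 32851 promoter stretches of this length, 6.75% held the AP-1 motif, 29.5% the ETS core, 9.56% the C/EBP motif and 7.25% the κB site. A match in these letters is a description and not a site of binding.

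Barcodes with at least 500 UMIs, at least 200 genes and under 5% mitochondrial UMIs were taken as cells, 6262 in the WT-labelled library and 8474 in the Ring1AKO-labelled library. Each cell was put in the class whose marker genes it expressed most, and none of the 8 members was a marker. Ring1, the targeted gene, had 829 UMIs (13.4 CPM, 12.5 to 14.3) and 824 UMIs (11.9 CPM, 11.1 to 12.7), where CPM is UMIs per 1000000 UMIs of the cells counted. The label was thus not borne out by a loss of 3′ counts, although such counts do not show a transcript disrupted upstream. The median depth was 6108.5 and 4825 UMIs per cell, and 15 barcodes occurred in both libraries. A further 406 and 482 cells had markers of several lineages and were left out as mixed, and 286 and 482 cells had too few markers. In 413 and 465 cells the score of another lineage lay near the limit for a mixed cell, between 0.5 and 0.7 of the best score.

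The monocyte gate held 935 WT-labelled cells and 267 labelled Ring1AKO, or 14.9% and 3.15% of the cells. The C1q macrophage gate held 247 and 263 cells, the neutrophil gate 233 and 265, and the gates of type 1, type 2 and mature migratory dendritic cells 67 and 69, 80 and 61, and 44 and 71. The T, NK and innate lymphoid gate held 1909 and 1938 cells, the B gate 1209 and 3672, and the plasma gate 700 and 768. Markers of T cells, B cells and type 1, type 2 and mature dendritic cells had a median of 0 UMIs over the monocyte-gated cells of both libraries. Markers of neutrophils and plasma cells did not. The neutrophil markers had a median of 1.91 and 2.78 UMIs per 10000, and 21.5% and 18.0% of these cells had none. The plasma markers had a median of 3.85 and 5.18 UMIs per 10000, and 2.25% and 4.87% of the cells had none. The summed C1q macrophage markers had a median of 5.49 and 8.38 UMIs per 10000 in these cells, against 105 and 66.4 for the monocyte markers. The monocyte markers themselves differed between the libraries. Ly6c2, a surface protein of inflammatory monocytes, was at 1222 and 295 CPM in this gate, and Plac8 at 6591 and 1988 CPM. Chil3 was at 1037 and 3238 CPM and F13a1 at 196 and 400.1 CPM.

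Il1b was the member with most UMIs, 181831 in the WT-labelled cells and 92491 in those labelled Ring1AKO. Its level over all cells was 2929 CPM (2916 to 2943) in the WT-labelled library and 1330.3 CPM (1322 to 1339) in the Ring1AKO-labelled library, a log2 ratio of -1.14 (-1.15 to -1.13). Il1rn was at 339 and 166 CPM, a log2 ratio of -1.03, and Nlrp3 at 190.3 and 94.3 CPM, a ratio of -1.01. Il1a was at 41.3 and 35.3 CPM, a log2 ratio of -0.23 (-0.31 to -0.15), and Il1f9 at 16.6 and 16.0 CPM, a ratio of -0.05 (-0.18 to 0.07). The ratios of Pycard, Casp1 and Gsdmd were -0.68, -0.60 and -0.25. Every member was therefore lower, or within counting error of equal, in the Ring1AKO-labelled library when all its cells were summed.

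The difference in Il1b over all cells was not seen once both libraries were given the class mix of the WT-labelled library. The mix was the share of UMIs in each class, with mixed cells and cells with too few markers counted as further classes. When the levels of the Ring1AKO-labelled library were weighted by the class mix of the WT-labelled library, Il1b came to 2923 CPM, against 2929 CPM as measured in WT, a log2 ratio of -0.0029. That value is a net over classes of opposite sign and does not mean equal levels within them. The log2 ratio was 0.20 in monocyte-gated, -0.74 in neutrophil-gated and -0.10 in C1q macrophage-gated cells. The same weighting gave log2 ratios of -0.09 for Il1rn, -0.10 for Nlrp3 and -0.12 for Il1f9. It gave -0.37 for Pycard, -0.49 for Casp1 and -0.04 for Gsdmd. Il1a stood apart, since its level came to 85.0 CPM against 41.3, a log2 ratio of 1.04. Only the mix of the WT-labelled library, with its larger monocyte part, was used as the standard. Weighting both libraries by the mix of the Ring1AKO-labelled library was not done and can give other ratios, for Il1b and Il1a alike. With the monocyte gate set without Ly6c2, Plac8 and Ms4a4c, the 3 monocyte markers with the lowest ratios, the weighted ratio was -0.18 for Il1b and 0.83 for Il1a. This gate was chosen after the data were seen and held 605 and 219 cells.

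**Figure D1:**
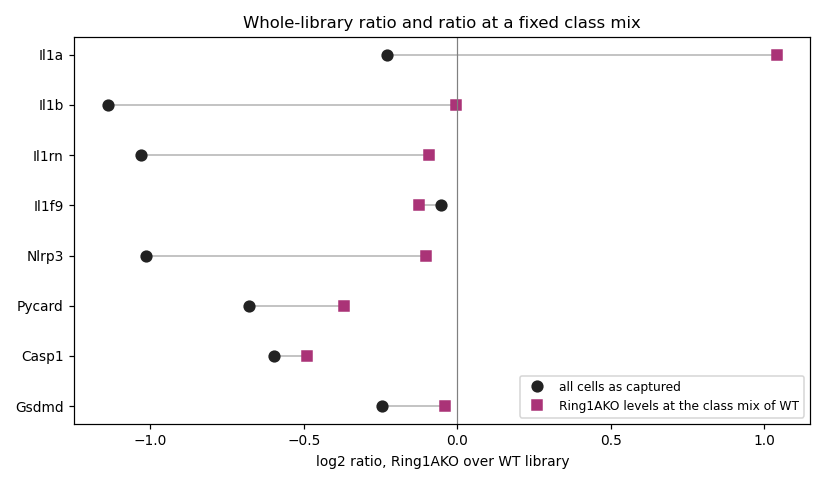
The log2 ratio of each gene, Ring1AKO over WT library, is plotted over all cells as captured (circles) and with Ring1AKO class levels weighted by the class mix of WT (squares). The mix is in shares of UMIs and includes mixed and unclassed cells. Il1b, Il1rn and Nlrp3 move from -1.14, -1.03 and -1.01 to -0.0029, -0.09 and -0.10, and Il1a moves from -0.23 to 1.04.

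The sources of the transcripts differed between the genes. Monocyte-gated cells held 57.6% (57.4 to 57.8) of the Il1b UMIs of the WT-labelled library and 30.7% (30.4 to 31.0) of those of the Ring1AKO-labelled library. Neutrophil-gated cells held 12.9% and 19.0%, C1q macrophage-gated cells 8.09% and 12.9%, the 3 dendritic gates 6.20% and 12.0% together. Il1rn, Nlrp3 and Il1a also had their largest share in the monocyte gate of the WT-labelled library, with 55.8%, 46.1% and 55.9%. In the Ring1AKO-labelled library the largest share of Nlrp3 lay in the neutrophil gate, 33.3% against 23.0% in the monocyte gate. Il1f9 was a neutrophil transcript in both, with 82.5% and 87.8% of its UMIs in that gate.

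Pycard, Casp1 and Gsdmd had larger lymphoid shares. Lymphoid cells (the T, NK and innate lymphoid, B and plasma gates together) held 59.7% and 75.6% of the Pycard UMIs, 45.1% and 73.2% of the Casp1 UMIs and 34.5% and 62.7% of the Gsdmd UMIs. Over all genes, the T, NK and innate lymphoid gate held 12330715 and 12992936 UMIs and the B gate 6565241 and 18782550. The plasma gate held 21123413 and 22883258, out of 62074822 and 69523609 UMIs in cells. These gates thus held most UMIs of both libraries, and the lymphoid shares were not read as enrichment. The monocyte gate held 21.8% and 5.66% of the Pycard UMIs and 29.5% and 5.11% of the Casp1 UMIs. It held 36.4% and 7.19% of the Gsdmd UMIs, so that in the WT-labelled library Gsdmd was split nearly evenly between monocyte-gated and lymphoid cells. Cell-free RNA, read from barcodes with fewer than 100 UMIs, gave a scale for these values. In T, NK and innate lymphoid-gated cells the level of Il1b was 2.65% and 4.12% of its level in cell-free barcodes, and that of Nlrp3 3.32% and 5.03%. The level of Pycard in the same cells was 63.1% and 104%, that of Casp1 121% and 100.6%, and that of Gsdmd 69.7% and 114%. The lymphoid counts of Pycard, Casp1 and Gsdmd thus did not stand in the ratio to Il1b that cell-free RNA had.

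**Figure D2:**
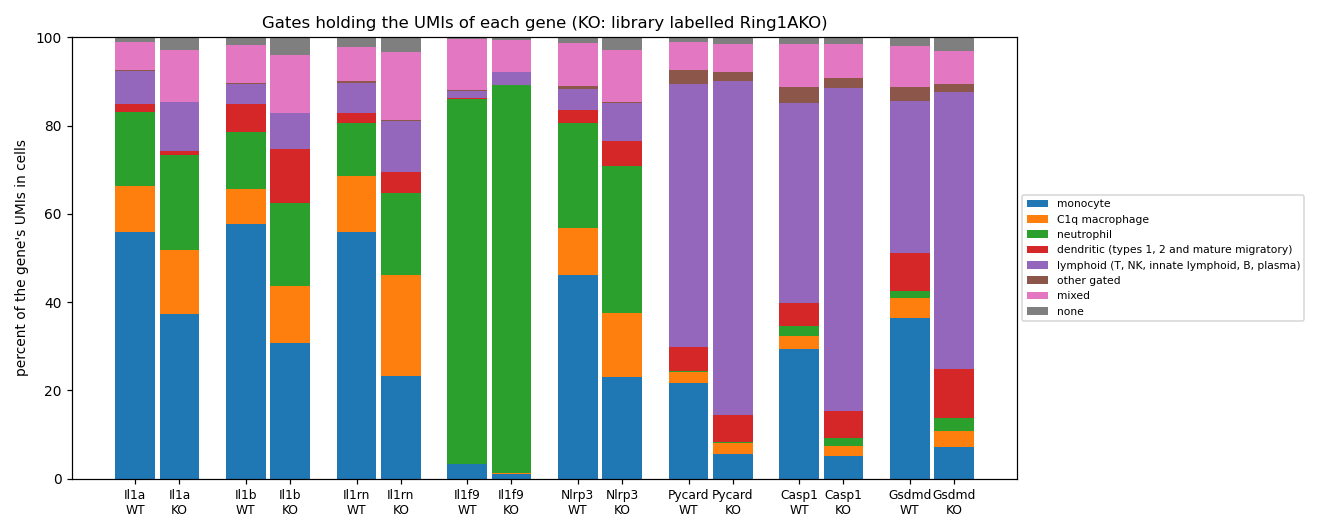
Stacked bars show the percent of each gene's UMIs in cells that lay in each gate, for the WT-labelled library and the Ring1AKO-labelled library (KO). The monocyte part of Il1b is 57.6% and 30.7%, Il1f9 is mostly in the neutrophil part, and the lymphoid part is largest for Pycard, Casp1 and Gsdmd.

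The count of members past a 2-fold difference within a gate was small. With at least 50 UMIs over both libraries in the gate, 1 of 7 members was past 2-fold in monocyte-gated cells, where 9.51% of 8111 genes were. None of 7 was past 2-fold in C1q macrophage-gated cells, where 3.65% of genes were, and none of 6 in neutrophil-gated cells, where 10.1% were. None of 4, 6 and 5 members was past 2-fold in type 1, type 2 and mature migratory dendritic-gated cells, where 7.51%, 7.1% and 6.1% of genes were. In types 1 and 2 of these cells 18.9% and 24.3% of the genes past 2-fold were higher, and 35.3% and 37.4% after the median was subtracted. The median log2 ratio of the members was -0.03 in monocyte-gated, -0.20 in C1q macrophage-gated and -0.35 in neutrophil-gated cells, against -0.20, -0.04 and -0.12 over all genes tested in these gates. Genes past 2-fold in monocyte-gated cells were mostly lower in the Ring1AKO-labelled library, 622 against 149 higher, and 404 against 243 after the median was subtracted. In neutrophil-gated cells the split was 224 lower against 56 higher, and 172 against 89 after the median was subtracted.

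**Figure D3:**
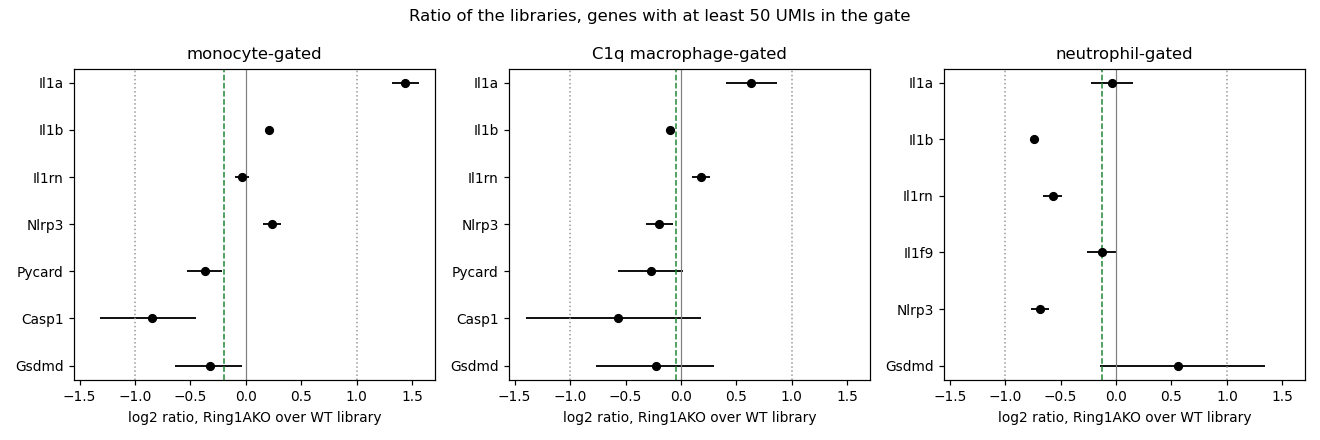
Points give the log2 ratio, Ring1AKO over WT library, of each gene with at least 50 UMIs in the gate, with exact 95% counting intervals. Dotted lines mark 2-fold and the dashed line the median of all genes tested, and in the gates shown only Il1a in monocyte-gated cells lies past 2-fold, at 1.44.

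With at least 50 UMIs, Il1a, the cytokine active without cleavage, was the member past 2-fold in these 6 gates. Outside them, with at least 50 UMIs, Il1b was past 2-fold lower in the mast, epithelium and fibroblast gates, Il1rn in the epithelium gate, Nlrp3 in the mast gate and Pycard in the fibroblast gate, each with at most 72 cells per library. In these 3 gates 11.5%, 9.36% and 9% of all genes were past 2-fold. In monocyte-gated cells Il1a had 1435 UMIs in the WT-labelled library, at 159.8 CPM (152 to 168). It had 914 UMIs in the Ring1AKO-labelled library, at 433 CPM (405 to 462). It was higher in the Ring1AKO-labelled library by a log2 ratio of 1.44 (1.32 to 1.56), or 2.71-fold, and by 1.64 relative to the median gene. Genes past 2-fold in this direction made up 1.84% of those tested. C1q macrophage-gated cells had 177 CPM (156 to 199) and 274 CPM (247 to 304), a log2 ratio of 0.63 (0.40 to 0.87). Thinned to 1000 UMIs, 11.0% (7.02 to 16.2) and 12.2% (8.21 to 17.3) of these cells had an Il1a UMI. These intervals overlap, so the ratio was not read as a larger share of cells with Il1a. The tenth of C1q macrophage-gated cells with most Il1a held 79.2% and 71.4% of its UMIs. Neutrophil-gated cells had 448 CPM (406 to 492) and 437 CPM (401 to 476), a log2 ratio of -0.04 with an interval that held 0. In the neutrophil gate the ratio was 0.41 with every cell thinned to 1000 UMIs. The 3 dendritic gates had 5 to 30 Il1a UMIs per library. In the mature migratory gate 30 and 5 UMIs gave a log2 ratio of -2.83 (-4.76 to -1.66), which fell under the limit of 50 UMIs and got no call. In monocyte-gated cells the Il1a ratio lay between 1.39 and 1.53 under 10 alternative settings, 1 of which left Ly6c2, Plac8 and Ms4a4c out of the monocyte markers. Ccr2, at 529 and 288 CPM, and Chil3, F13a1 and Fn1 stayed in the gate in all of them.

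Il1a transcripts were spread unevenly over cells. In the monocyte gate 72.4% of WT-labelled cells and 47.2% of Ring1AKO-labelled cells had no Il1a UMI. The tenth of monocyte-gated cells with most Il1a held 75.7% and 62.0% of its UMIs, so that the level rested on 258 and 141 cells with at least 1 UMI. With each cell thinned to 1000 UMIs, which removes the difference in depth and left out 11 and 2 cells, 9.96% (8.10 to 12.1) and 23.0% (18.1 to 28.6) of monocyte-gated cells had an Il1a UMI. In B-gated cells, which should lack it, the thinned shares were 0.414% and 0.328%, at a median depth of 4196 and 4332 UMIs before thinning. Unthinned, the monocyte-gated shares were 27.6% and 52.8%, at a median depth of 9881 and 7787 UMIs. Monocyte-gated cells without a C1q UMI (727 and 208 cells) had an Il1a level of 156 and 357 CPM, and those with at least 1 (208 and 59 cells) a level of 172 and 772 CPM, a log2 ratio of 2.17. Whether the shift of monocyte markers plays a part in the Il1a ratio was not tested.

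**Figure D4:**
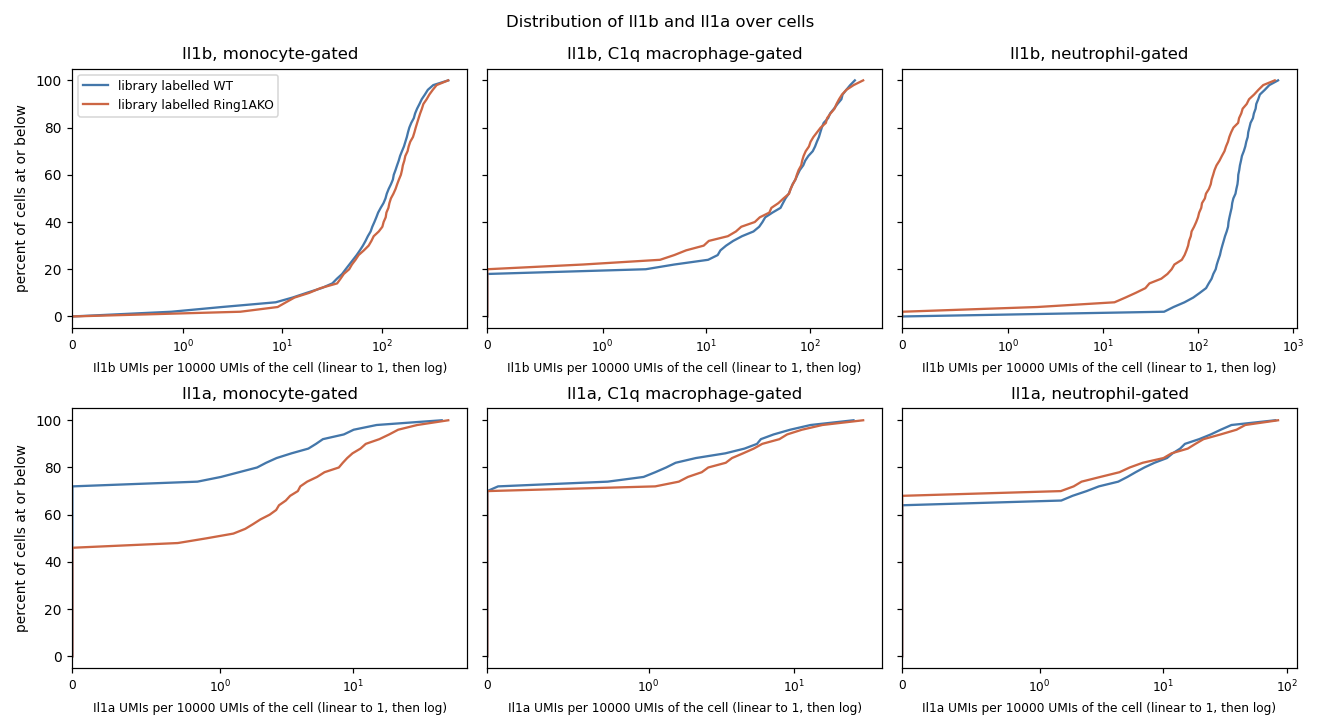
Curves give the percent of cells at or below a level of Il1b (upper row) or Il1a (lower row), in UMIs per 10000 UMIs of the cell on an axis linear to 1 and logarithmic beyond, per gate and library. The Il1a curve of monocyte-gated cells starts at 72.4% in the WT-labelled library and at 47.2% in the Ring1AKO-labelled library, and the Il1b curve of neutrophil-gated cells lies to the left in the latter.

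Il1b, the cytokine released through the inflammasome, was counted at 949 CPM or more in the 6 gates of monocytes, C1q macrophages, neutrophils and the 3 kinds of dendritic cells, and had ratios of opposite sign in monocytes and neutrophils. Monocyte-gated cells had 104777 UMIs in the WT-labelled library, at 11667 CPM (11597 to 11738), and 28380 in the Ring1AKO-labelled library, at 13438 CPM (13283 to 13596). The log2 ratio was 0.20 (0.18 to 0.22), and 0.40 relative to the median gene of the gate. These are levels per UMI. Per cell this gate had 112 and 106 Il1b UMIs, at a median depth of 9881 and 7787 UMIs. Neutrophil-gated cells had 23446 UMIs at 24538 CPM (24225 to 24854) and 17586 UMIs at 14675 CPM (14459 to 14893), a log2 ratio of -0.74 (-0.77 to -0.71). C1q macrophage-gated cells had 9799 and 9145 CPM, a log2 ratio of -0.10 (-0.13 to -0.06). In the WT-labelled library the neutrophil gate thus had the highest Il1b level and the monocyte gate the next, while in the Ring1AKO-labelled library the neutrophil gate was only slightly above the monocyte gate. The dendritic gates differed among themselves in both libraries, with 949 and 1362 CPM in type 1, 6762 and 7643 CPM in type 2 and 4270.4 and 3555 CPM in mature migratory dendritic cells. Their log2 ratios between the libraries, 0.52, 0.18 and -0.26, changed sign under other settings. The ratio of type 1 was -0.11 with cells thinned to 1000 UMIs, that of type 2 was -0.05 without the 5% of cells with most genes, and that of mature migratory dendritic cells was 0.05 with mixed cells kept and -0.90 as a mean over cells. Type 1 dendritic cells, which take up dying cells for cross-presentation, had the lowest summed level of these 6 gates. This order did not hold for the median cell of the Ring1AKO-labelled library. The median was 3.84 and 7.67 Il1b UMIs per 10000 in type 1 and 9.97 and 5.18 in mature migratory dendritic cells. The tenth of cells with most Il1b held 46.6% and 68.9% of its UMIs in the mature migratory gate, against 42.9% and 46.6% in type 1.

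The lower Il1b level of neutrophil-gated cells was seen across most of the cells. The median cell had 236 Il1b UMIs per 10000 in the WT-labelled library and 118 in the Ring1AKO-labelled library, and the tenth percentile was 105 and 22.2. The median in monocyte-gated cells was 108 and 123, and that in C1q macrophage-gated cells 57.9 and 55.4. After thinning to 1000 UMIs, 93.5% and 92.8% of monocyte-gated cells and 100% and 99.6% of neutrophil-gated cells had an Il1b UMI, against 8.28% and 5.34% of B-gated cells. Neutrophil markers also moved in the neutrophil gate. The markers together had a median of 1415 and 2048 UMIs per 10000, with Retnlg at 6393 and 18846 CPM and Ly6g at 156 and 354 CPM. Csf3r, the receptor of a growth factor of neutrophils, was at 1295 and 889 CPM, and Cxcr2, a chemokine receptor, at 429 and 337 CPM. The median depth of these cells was 3880 and 4516 UMIs. The part of these shifts in the Il1b ratio was not tested.

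**Figure D5:**
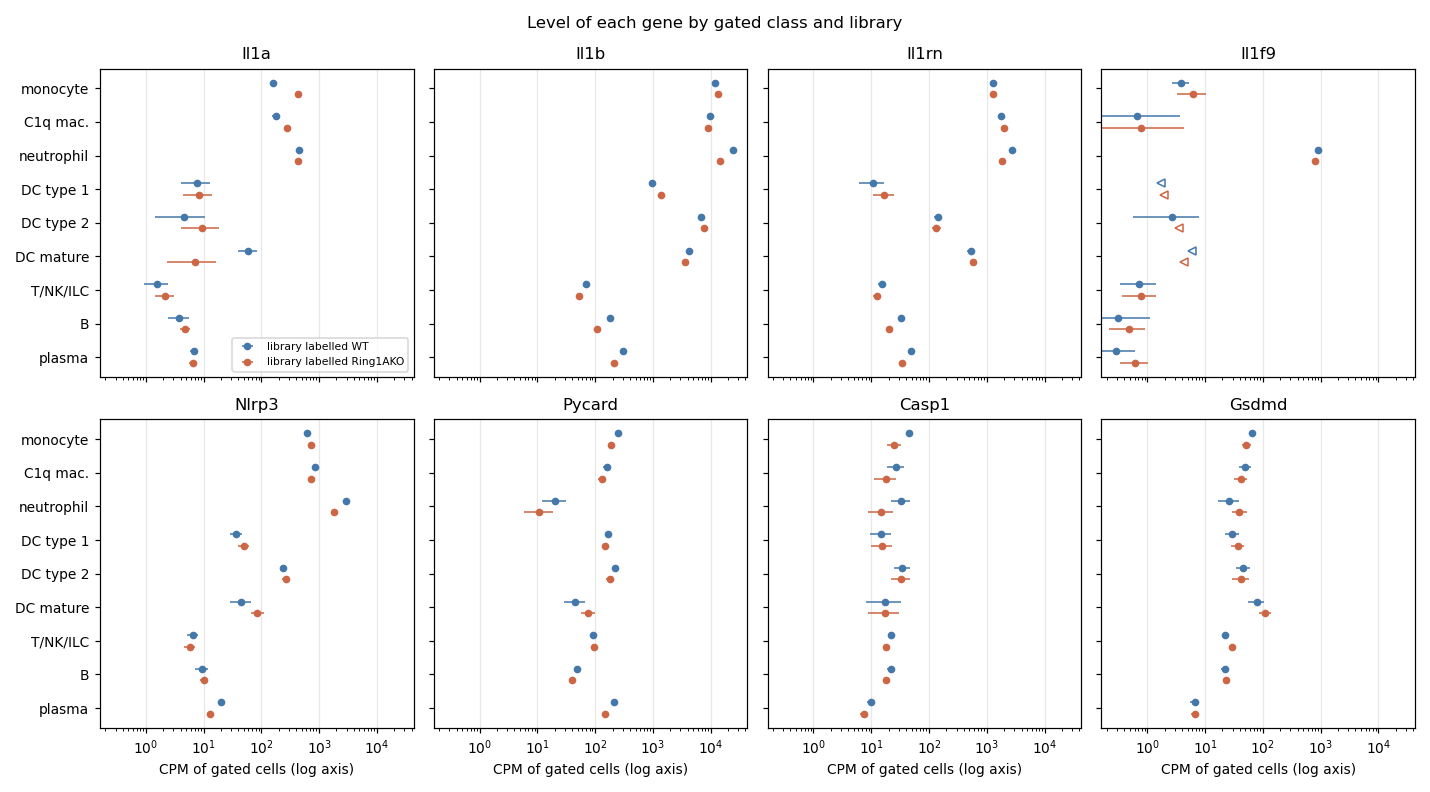
Points give the level of each gene in CPM (log axis) in 9 gates of the libraries labelled WT and Ring1AKO, with exact 95% Poisson intervals, and open triangles mark the limit of 3 UMIs where none was counted. Il1b, Il1rn and Nlrp3 are highest in the monocyte, C1q macrophage and neutrophil gates, and type 2 dendritic cells come next for Il1b but not for Il1rn. Il1f9 stands out in neutrophils, and Pycard is lowest in neutrophils.

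Il1rn, the antagonist, was counted mostly in the monocyte, C1q macrophage and neutrophil gates. Monocyte-gated cells had 1307 CPM (1284 to 1331) in the WT-labelled library and 1276 CPM (1228 to 1325) in the Ring1AKO-labelled library, a log2 ratio of -0.03 (-0.10 to 0.03) that was 0.16 relative to the median gene. C1q macrophage-gated cells had 1780 CPM (1713 to 1848) and 2018 CPM (1941 to 2097), a log2 ratio of 0.18 (0.10 to 0.26) that was 0.027 without the 5% of cells with most genes. Thinned to 1000 UMIs, 54.0% (46.8 to 61.1) and 48.9% (42.1 to 55.7) of these cells had an Il1rn UMI, so that no direction was read from this ratio. Neutrophil-gated cells had 2681 and 1802 CPM, a log2 ratio of -0.57 (-0.66 to -0.49). Type 2 dendritic-gated cells had little Il1rn beside their Il1b, 143 and 134 CPM, whereas mature migratory dendritic-gated cells had 523 and 579 CPM. The type 2 gate also carried monocyte markers, at a median of 24.5 and 13.9 UMIs per 10000, against 17.1 and 16.9 for its own markers. Markers of mature dendritic cells were at 2.79 and 10.5 there. The part of this overlap in the levels of the gate was not tested.

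The balance of antagonist and cytokine therefore differed more between the classes than between the libraries. Il1rn made up 15.4% and 18.1% of the Il1rn and Il1b UMIs together in C1q macrophage-gated cells, 10.1% and 8.67% in monocyte-gated cells and 9.85% and 10.9% in neutrophil-gated cells. It made up 10.9% and 14.0% in mature migratory, 2.07% and 1.73% in type 2 and 1.10% and 1.21% in type 1 dendritic cells. The log2 ratio of Il1rn to Il1b in the monocyte gate was -3.16 and -3.40, a difference of -0.24 between the libraries that ranged from -0.26 to -0.19 over the alternatives. In the C1q macrophage gate the difference was 0.28, which rests on the Il1rn value given above. Il1a per 100 Il1b UMIs was 1.37 and 3.22 in monocyte-gated, 1.80 and 3.00 in C1q macrophage-gated and 1.83 and 2.98 in neutrophil-gated cells, so that it was higher in the Ring1AKO-labelled library in these 3 gates, in neutrophils through a lower Il1b.

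In the monocyte and C1q macrophage gates, cells with an Il1b transcript more often had the antagonist as well. After thinning, 51.7% (48.3 to 55.1) of the 864 WT-labelled monocyte-gated cells with an Il1b UMI had an Il1rn UMI, against 23.3% (13.4 to 36.0) of the 60 without. In the Ring1AKO-labelled library these shares were 53.7% and 26.3%, and their intervals overlapped (47.2 to 60.0 and 9.15 to 51.2). In C1q macrophage-gated cells they were 61.4% and 10.3% in the WT-labelled library and 57.1% and 10.3% in the Ring1AKO-labelled library. In the WT-labelled library they were 40.0% and 0% in mature migratory and 10.4% and 7.69% in type 2 dendritic-gated cells. In type 1 they were 0 of 32 and 1 of 35 cells. Only 0 and 1 thinned neutrophil-gated cells lacked an Il1b UMI, so that gate could not be read. Nlrp3 was found in 50.3% of WT-labelled C1q macrophage-gated cells with an Il1b UMI and in 10.3% of those without, and in 48.9% and 15.4% in the Ring1AKO-labelled library. In monocyte-gated cells the Nlrp3 shares lay closer, 42.0% and 26.7% in the WT-labelled library and 48.8% and 42.1% in the other. Cells of a gate share a library, so these shares describe 2 pools of mice.

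Il1f9, which encodes IL-36γ, was a transcript of the neutrophil gate. It had 849 UMIs at 889 CPM (829.8 to 950.4) in the WT-labelled library and 975 UMIs at 814 CPM (763 to 866) in the Ring1AKO-labelled library, a log2 ratio of -0.13 (-0.26 to 0.01) that was -0.36 with cells thinned to 1000 UMIs. Monocyte-gated cells had 34 and 13 UMIs, 3.79 and 6.16 CPM, and C1q macrophage-gated cells 1 UMI in each library. No UMI was counted in type 1 or mature migratory dendritic-gated cells, which allows up to 3 UMIs, or 1.75 and 1.92 CPM in type 1 and 5.86 and 4.27 CPM in mature migratory dendritic cells. Of neutrophil-gated cells thinned to 1000 UMIs, 47.8% (40.9 to 54.9) and 40.7% (34.5 to 47.2) had an Il1f9 UMI, and unthinned the shares were 65.2% and 66.0%, against 0.165% and 0.245% of B-gated cells. With all UMIs of each cell, the intervals of the Il1f9 and Il1a ratios in these cells held 0 and those of Il1b, Il1rn and Nlrp3 did not.

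Nlrp3, the sensor, had ratios of the same sign as Il1b in the monocyte, C1q macrophage and neutrophil gates. In the mature migratory dendritic gate the signs were opposite, with 0.89 for Nlrp3 and -0.26 for Il1b. In the WT-labelled library the Nlrp3 level was higher in C1q macrophage-gated than in monocyte-gated cells, and the Il1b level was lower. Neutrophil-gated cells had 2936 CPM (2828 to 3046) in the WT-labelled library and 1823 CPM (1748 to 1901) in the Ring1AKO-labelled library, a log2 ratio of -0.69 (-0.77 to -0.61). Monocyte-gated cells had 607 and 715 CPM, a log2 ratio of 0.24 (0.15 to 0.32), and C1q macrophage-gated cells 839 and 733 CPM, a ratio of -0.20 (-0.32 to -0.07). Its level in type 2 dendritic cells was 242 and 264 CPM. In mature migratory dendritic cells it had 23 and 60 UMIs, 44.9 and 85.3 CPM, a log2 ratio of 0.89 (0.21 to 1.69) that turned to -0.29 in its lowest alternative. Thinned to 1000 UMIs, 84.1% (78.3 to 88.8) and 71.6% (65.5 to 77.2) of neutrophil-gated cells had an Nlrp3 UMI. Over 19 points of gate and library with at least 50 cells, the correlation of log2(CPM + 1) of Nlrp3 with Il1b was 0.97 and with Il1rn 0.93, where the points share libraries and depth.

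Pycard, the adaptor, did not follow Il1b and Nlrp3. Monocyte-gated cells had 244.9 CPM (235 to 255) in the WT-labelled library and 189 CPM (171 to 209) in the Ring1AKO-labelled library, a log2 ratio of -0.37 (-0.53 to -0.22). Neutrophil-gated cells, where Il1b and Nlrp3 were highest, had 19 and 13 Pycard UMIs, or 19.9 CPM (12.0 to 31.1) and 10.8 CPM (5.78 to 18.5). Only 7.30% and 4.53% of neutrophil-gated cells had a Pycard UMI, below the 15.6% and 14.4% of B-gated cells at similar depth. Plasma-gated cells had 216 and 147 CPM, a log2 ratio of -0.55, near the monocyte gate, and T, NK and innate lymphoid-gated cells 93.5 and 95.6 CPM. Types 1 and 2 of the dendritic cells had 170 and 148 and 224 and 180.2 CPM. Epithelium-gated cells, only 23 and 8 of which passed the CD45 sort, had 331 and 458 CPM. The correlation of Pycard with Il1a and Il1b over the 19 points was -0.09 and 0.11.

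Casp1, the protease, was counted at low levels throughout. Monocyte-gated cells had 405 UMIs at 45.1 CPM (40.8 to 49.7) in the WT-labelled library and 52 UMIs at 24.6 CPM (18.4 to 32.3) in the Ring1AKO-labelled library, a log2 ratio of -0.85 (-1.32 to -0.45). This ratio passed 2-fold, at -1.11, when Ly6c2, Plac8 and Ms4a4c were left out of the gate, and was -0.59 with cells thinned to 1000 UMIs. Neutrophil-gated cells had 31 and 18 UMIs, a log2 ratio of -1.08 (-2.04 to -0.23) that fell under the limit of 50 UMIs and got no call. C1q macrophage-gated cells had 40 and 23 UMIs, and type 2 dendritic cells 34.5 and 33.0 CPM. T, NK and innate lymphoid-gated cells were at 21.8 and 17.9 CPM and B-gated cells at 22.1 and 18.2 CPM. The level was highest, among gates with at least 50 UMIs, in the 23 and 8 epithelium-gated cells. They had 40 and 16 UMIs, at 63.7 CPM (45.5 to 86.8) and 86.2 CPM (49.3 to 140). In the WT-labelled library that interval overlaps the interval of the monocyte gate.

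Gsdmd, the pore former, was highest among the gates with at least 50 UMIs in mature migratory dendritic cells, with 78.1 CPM (55.8 to 106) in the WT-labelled library and 110 CPM (86.4 to 137) in the Ring1AKO-labelled library. Monocyte-gated cells had 65.6 CPM (60.4 to 71.1) and 52.1 CPM (42.8 to 62.8), a log2 ratio of -0.32 (-0.64 to -0.04). These intervals overlap within the WT-labelled library, so the order of both gates is not shown there. Neutrophil-gated cells had 25 and 47 UMIs, a log2 ratio of 0.56 (-0.15 to 1.35) that held 0 and was -0.23 after thinning. T, NK and innate lymphoid-gated cells had 22.1 and 29.2 CPM, a log2 ratio of 0.41 (0.18 to 0.64). Relative to the median gene of the monocyte gate, the log2 ratios of Pycard, Casp1 and Gsdmd were -0.17, -0.65 and -0.12, and those of Il1a, Il1b and Nlrp3 were 1.64, 0.40 and 0.43, of which Il1a alone was past 2-fold.

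Outside these gates, Il1b was low. Plasmacytoid dendritic-gated cells had 37 and 4 UMIs, at 110 and 20.1 CPM. B-gated cells had 177 and 108 CPM, plasma-gated cells 302 and 212 CPM and T, NK and innate lymphoid-gated cells 69.9 and 52.7 CPM, against 2640 and 1281 CPM in cell-free barcodes. These classes were lower in the Ring1AKO-labelled library by log2 ratios of -0.71, -0.51 and -0.41, beside a cell-free level that was also lower. Mast-gated cells had 81 and 17 Il1b UMIs in 12 and 40 cells, a log2 ratio of -3.01. The low counts in these classes were not read as expression.

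Other genes of the IL-1 family were sparse. Of 7 other ligands and inhibitors, 2 had at least 50 UMIs in monocyte-gated cells. Il18, which the inflammasome also releases, was at 50.6 and 43.6 CPM, a log2 ratio of -0.20 (-0.55 to 0.11). Il18bp, which binds and neutralises IL-18, was at 31.6 and 4.26 CPM on 284 and 9 UMIs, a log2 ratio of -2.74 (-4.04 to -1.95), whereas in C1q macrophage-gated cells it was at 43.3 and 62.3 CPM. The median of these genes was -1.47 in monocyte-gated cells, over 2 genes, against -0.20 for all genes.

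Of 8 receptors of the family, 4 had enough UMIs in monocyte-gated cells, of which 1 was past 2-fold higher and 1 lower, with a median of 0.69. Over all genes tested there, 1.84% were past 2-fold higher and 7.67% lower. Il1r2, a decoy receptor that binds IL-1 without signalling, was at 147 and 331 CPM there, a log2 ratio of 1.17 (1.04 to 1.31). It was highest in neutrophil-gated cells, with 1906 and 1933 CPM and a ratio of 0.02 (-0.07 to 0.11). Il18rap, a chain of the IL-18 receptor, had 148 and 14 UMIs in monocyte-gated cells, a log2 ratio of -1.22 (-2.22 to -0.52), and Il18r1, the other chain, 41 and 13 UMIs in neutrophil-gated cells, a ratio of -1.91 (-3.01 to -1.06). In neutrophil-gated cells 4 receptors had enough UMIs, with 1 past 2-fold lower and a median of -0.59, where 2.02% of all genes were past 2-fold higher and 8.1% lower.

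Among 20 other inflammasome and pyroptosis genes, 15 had at least 50 UMIs in monocyte-gated cells, and 4 of these were past 2-fold lower and none higher, where 7.67% of all genes were lower and 1.84% higher. Their median was -0.34, against -0.20 for all genes. Zbp1, an interferon-induced sensor of nucleic acids, was at 234 and 54.0 CPM, a log2 ratio of -2.11 (-2.40 to -1.85). It was also lower in neutrophil-gated cells, at 102 and 15.9 CPM, a ratio of -2.62 (-3.47 to -1.96). Aim2, a sensor of DNA, was at 34.9 and 15.2 CPM in monocyte-gated cells, a ratio of -1.16. Nlrp1b had 63 and 2 UMIs and Naip6 128 and 11 UMIs, with ratios of -2.33 and -1.34, and both belong to families of near-identical copies whose counts are uncertain. Mefv, which encodes the sensor pyrin, was at 357 and 146 CPM in neutrophil-gated cells, a ratio of -1.29 (-1.56 to -1.02), and 2 of 6 genes of the list were past 2-fold lower there, where 8.1% of all genes were, with a median of -0.19 against -0.12 for all genes.

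The signalling list, with adaptors, kinases and feedback inhibitors downstream of the IL-1 and Toll-like receptors, had no gene past 2-fold in monocyte-, C1q macrophage- or neutrophil-gated cells. Of its 14 genes, 14, 14 and 10 had enough UMIs, and their median log2 ratios were -0.03, 0.09 and -0.13. Over all genes in these gates the medians were -0.20, -0.04 and -0.12, and 9.51%, 3.65% and 10.1% were past 2-fold. Target cytokines of the pathway stood higher in monocyte-gated cells of the Ring1AKO-labelled library. Of 9 genes, 5 were past 2-fold higher and none lower, where 1.84% of all genes were higher, and the median was 1.01 against -0.20 for all genes. The list was written with earlier results of these data known, so its counts are a description and not a test. The list also stood higher in the C1q macrophage and the type 1 and type 2 dendritic gates, with no gene past 2-fold lower. In C1q macrophage-gated cells 3 of 9 genes were past 2-fold higher, with a median of 0.66 against -0.04 for all genes. In type 1 dendritic-gated cells 5 of 5 were, with a median of 1.56 against -0.16. In type 2 dendritic-gated cells 3 of 5 were, with a median of 1.197 against -0.11. Of all genes in these gates, 3.65%, 7.51% and 7.1% were past 2-fold in either direction. In mature migratory dendritic-gated cells none of 7 was higher and 1 was lower, with a median of -0.14 against -0.04 for all genes. There 6.1% of all genes were past 2-fold in either direction. In monocyte-gated cells Cxcl1, a chemokine that draws neutrophils, was at 271 and 1260.03 CPM, a log2 ratio of 2.22 (2.14 to 2.30). Cxcl3 was at 278 and 922 CPM, a ratio of 1.73. Csf3, a growth factor of neutrophils, was at 45.5 and 141 CPM, a ratio of 1.63 (1.41 to 1.85). Cxcl2, a related chemokine, was at 5285 and 11152 CPM, a ratio of 1.08, and Ccl3 at 371 and 746 CPM, a ratio of 1.01.

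In neutrophil-gated cells 8 of the target cytokines had enough UMIs, with 1 past 2-fold in each direction and a median of 0.03. Of all genes tested there, 2.02% were past 2-fold higher and 8.1% lower, and their median was -0.12. Csf3 was at 151 and 343 CPM, a log2 ratio of 1.18 (0.91 to 1.47), and Ptgs2, which encodes the enzyme that makes prostaglandins in inflammation, at 4114 and 2000.2 CPM, a ratio of -1.04 (-1.11 to -0.97). A list of 9 genes induced by tissue dissociation had medians of -0.24 in monocyte-gated and -0.31 in neutrophil-gated cells, with 1 gene past 2-fold in each, Atf3, at ratios of -1.05 and -1.44. Of all genes in these gates, 7.67% and 8.1% were past 2-fold lower, and the medians were -0.20 and -0.12. The ratios of this list ran from -1.05 to 0.76 in monocyte-gated and from -1.44 to 0.55 in neutrophil-gated cells, and the part of the dissociation response in the member ratios was not tested.

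For each member the 3 genes with the highest Pearson correlation of log2(CPM + 1) over the 19 points of gate and library were noted. Il1b was nearest to Pirb (r = 0.98), Gpr35 and Ptafr, and Nlrp3 to Pilrb1 (r = 0.99), Pilrb2 and Ptafr. Il1a was nearest to Clec5a (r = 0.97), Arg2 and Fpr2, and Il1rn to Sirpb1c (r = 0.98), Gm5150 and Fcgr4. Il1f9 was nearest to Mirt2 (r = 0.98), Cxcr2 and S100a8, of which Cxcr2 and S100a8 were markers of the neutrophil gate. The inflammasome genes found in lymphoid cells had as nearest genes Uqcrq, Tmem160 and Ndufb8 for Pycard (r = 0.91 for the first), Malt1, Slc38a1 and Laptm5 for Casp1 (r = 0.93) and Ttyh3, Dennd5a and Map4k4 for Gsdmd (r = 0.93). Points of the same gate share marker genes and those of the same library share depth, so these values describe likeness of distribution among 9325 genes.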

How the data were processed

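Cells came from colonic lamina propria after a 60 min digestion. The deposited values were whole UMI counts per gene and barcode in 1 unfiltered matrix per library, made by the authors with Cell Ranger. The sources used here conflict on the version and build: the methods name mm10, the labels mm39 with Cell Ranger 6.0.2 and Seurat, and the matrix header another version. The files held 74414511 and 81862096 UMIs, of which 62074822 and 69523609 lay in cells.

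For each cell, log values of 14 marker panels, scaled to the 90th percentile of detecting cells and limited at 1, were averaged, and the best panel gave the gate. At least 3 marker genes and 5 marker UMIs were required. Cells with a panel of another lineage at 0.6 or more of the best were left out as mixed, and no doublet caller was run. Monocytes, macrophages and all dendritic cells counted as a single lineage, and so did B and plasma cells. Overlap of markers within such a lineage was therefore not removed. UMIs were summed per gate and library, with exact Poisson intervals for levels, Clopper-Pearson intervals for shares and exact conditional intervals for ratios. Ratios used 1 UMI added to each library, and gates of under 50 UMIs for a gene gave no call. The ratio and interval steps were tested on simulated data. With 1 library per group no test between groups was made. Named genes were the 8 members, genes of the pathway lists past 2-fold in the monocyte or neutrophil gate, and the 3 genes most like each member among those with at least 500 UMIs. Marker genes named for a gate and Il18 were chosen after their values were seen. Members and lists were chosen with earlier results of these data known. Values were recomputed under 12 other settings, and under 2 more chosen after seeing the data. Promoters were found in RefSeq for 7 of 8 members, all but Gsdmd. Software was Python 3.11.15, numpy 2.4.6, scipy 1.17.1, pandas 2.3.3 and matplotlib 3.10.9.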

Additional observations from a re-analysis of the deposited data

Results flagged for a closer look

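The ratio of Il1b between the libraries had opposite signs in 2 gates, with a log2 ratio (Ring1AKO over WT) of 0.20 in monocyte-gated and -0.74 in neutrophil-gated cells. Nlrp3 showed the same pattern, with 0.24 in monocyte-gated and -0.69 in neutrophil-gated cells. With 1 library per group, neither difference between the gates was tested. The opposite signs hold for levels per UMI and not for UMIs per cell. Monocyte-gated cells had 112 and 106 Il1b UMIs and 5.83 and 5.66 Nlrp3 UMIs per cell. Neutrophil-gated cells had 101 and 66.4 Il1b UMIs and 12.0 and 8.25 Nlrp3 UMIs per cell.

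Il1b was also counted in barcodes with fewer than 100 UMIs, which hold cell-free RNA. These barcodes were not counted as cells. They served as a scale for levels in cells and for the setting with cell-free RNA subtracted. Its level there was 2640 CPM in the WT-labelled and 1281 CPM in the Ring1AKO-labelled library.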

How the results depend on the processing

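No paired analysis was possible because each group had 1 library. Of 392 recomputed values of 40 results, 323 moved by less than the counting interval, 69 moved by more, and 0 that were past 2-fold changed sign. The ratios over all cells of Il1b, Il1rn and Nlrp3 (-1.14, -1.03 and -1.01) were past 2-fold but were not among these 40 results. Of the recomputed ratios, only those of Il1a in monocyte-gated cells (1.44) and at the class mix of WT (1.04) were past 2-fold. Smaller ratios often changed sign. That of Il1rn in monocyte-gated cells ran from -0.061 to 0.0085, and that of Il1a in neutrophil-gated cells from -0.04 to 0.41, each with 3 changes of sign. The share of Il1b UMIs in monocyte-gated cells (57.6% and 30.7%) was 30.4% in the Ring1AKO-labelled library with a stricter gate, 52.1% and 29.0% with cells thinned to 1000 UMIs, 57.9% and 32.0% without the 5% of cells with most genes, 39.7% and 26.9% with the monocyte list without Ly6c2, Plac8 and Ms4a4c, and 60.3% and 32.6% with mixed cells kept. The last 2 settings were chosen after seeing the data. The Il1b log2 ratio of monocyte-gated cells was 0.23 with cell-free RNA subtracted, 0.18 as a mean over cells and 0.23 with mixed cells kept. That of neutrophil-gated cells was -0.61 thinned, -0.78 without the 5% of cells with most genes and -0.81 with mixed cells kept. The Il1rn ratio of neutrophil-gated cells was -0.43 both thinned and as a mean over cells. At the class mix of WT, Il1b was at -0.062 thinned and -0.18 with the shorter monocyte list, and Il1a at 0.83 with that list. The causes were not tested. With a minimum of 20 in place of 50 UMIs, genes past 2-fold numbered 468 for 191 in the C1q macrophage, 616 for 280 in the neutrophil, 868 for 423 in the type 1, 725 for 288 in the type 2 and 523 for 172 in the mature migratory dendritic gate. One library per group, few monocyte-gated cells in the Ring1AKO-labelled library and low counts of Casp1 and Gsdmd limit these values.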
